A study of Schizosaccharomyces pombe with 12 samples.

Results

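The 7 genes described here, *arp2*, *arp3*, *wsp1*, *vrp1*, *myo1*, *end4* and *pan1*, code for the Arp2/3 complex, its activators and coat proteins of the endocytic actin patch of the fission yeast *Schizosaccharomyces pombe*. They were chosen by name, as genes of branched actin and endocytosis, and each of the 7 had 1 probe set among the 4875 *S. pombe* probe sets of the array. The study set cells whose RNA polymerase II cannot be phosphorylated on Ser-2 of its C-terminal domain (CTD) against cells that can, with and without the actin drug latrunculin A (LatA), and asked how gene expression differs between them. RNA was taken from 4 groups, each with 3 samples labelled as biological replicates, on 12 Affymetrix arrays. The *rpb1-12XS2ACTD* strain carries an *rpb1* gene with 12 heptad repeats in which every serine 2 is alanine, and was grown with LatA or with its solvent DMSO. The *rpb1-12XCTD* strain, the control, carries 12 repeats of wild-type sequence and was grown in the same 2 ways. Both strains therefore have a shortened CTD, each is a single strain, and no strain with the CTD at its native length was analysed here. LatA was given at 0.5 µM for 3 h in rich liquid YES medium, and DMSO for the same time.

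Actin patches are small assemblies of branched actin filaments that form where endocytic vesicles bud from the plasma membrane. A coat of clathrin, adaptors and scaffold proteins gathers first. Nucleation-promoting factors such as Myo1 and Wsp1, the latter with its partner Vrp1, then switch on the Arp2/3 complex. The complex starts new filaments as branches on old ones. LatA binds actin monomers and so hinders filament assembly, and the study used it at a low dose that does not take the actin cytoskeleton wholly apart. Besides patches, filaments make up the contractile ring, the structure of formin-made, unbranched filaments that divides the cell.

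The messages of all 7 genes were at higher levels with LatA than with DMSO, by small amounts. Averaged over both strains the differences ran from 0.24 in *vrp1* to 0.42 in *end4* on the log2 scale, or 1.18 to 1.34 fold, and the upper 95% bound of the highest was 1.43 fold. In *rpb1-12XS2ACTD* cells *arp2*, *arp3*, *myo1* and *end4* passed the test on adjusted p alone, where 17.4% of all probe sets did so upward. In *rpb1-12XCTD* cells all 7 did, where 27.3% of all probe sets did so upward. None of the 7 passed the threshold of 1.5 fold that the methods add to the adjusted p, in any comparison. Between the strains *vrp1* alone differed by the test, with LatA, where it was lower in *rpb1-12XS2ACTD* cells, as were 3.53% of all probe sets. Which strain had more of the 7 genes called for the LatA effect depends on the test. The gene-specific t-test of the methods called 6 of 7 in *rpb1-12XS2ACTD* cells and 0 of 7 in *rpb1-12XCTD* cells.

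The deposited values are log2 expression values centred so that the median of each probe set over the 12 arrays is 0. A value is therefore a distance from that gene's own middle, levels of different genes cannot be ranked, and fewer cells that carry a message cannot be told apart from less message per cell. The arrays were not equally tight. The median SD of a probe set over the 3 replicates was 0.08 in *rpb1-12XS2ACTD* cells with LatA and 0.10 with DMSO, against 0.07 in *rpb1-12XCTD* cells with LatA and 0.20 with DMSO. The medians of all probe sets on the 3 *rpb1-12XCTD* DMSO arrays were −0.16, −0.11 and 0.07, while those of the 9 other arrays lay between −0.03 and 0.04. Their part in the results below was not tested beyond the settings named with each. No level on the array checks the strain labels, since the strains differ by a change of residue and not by a missing gene.

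**Figure D1:**
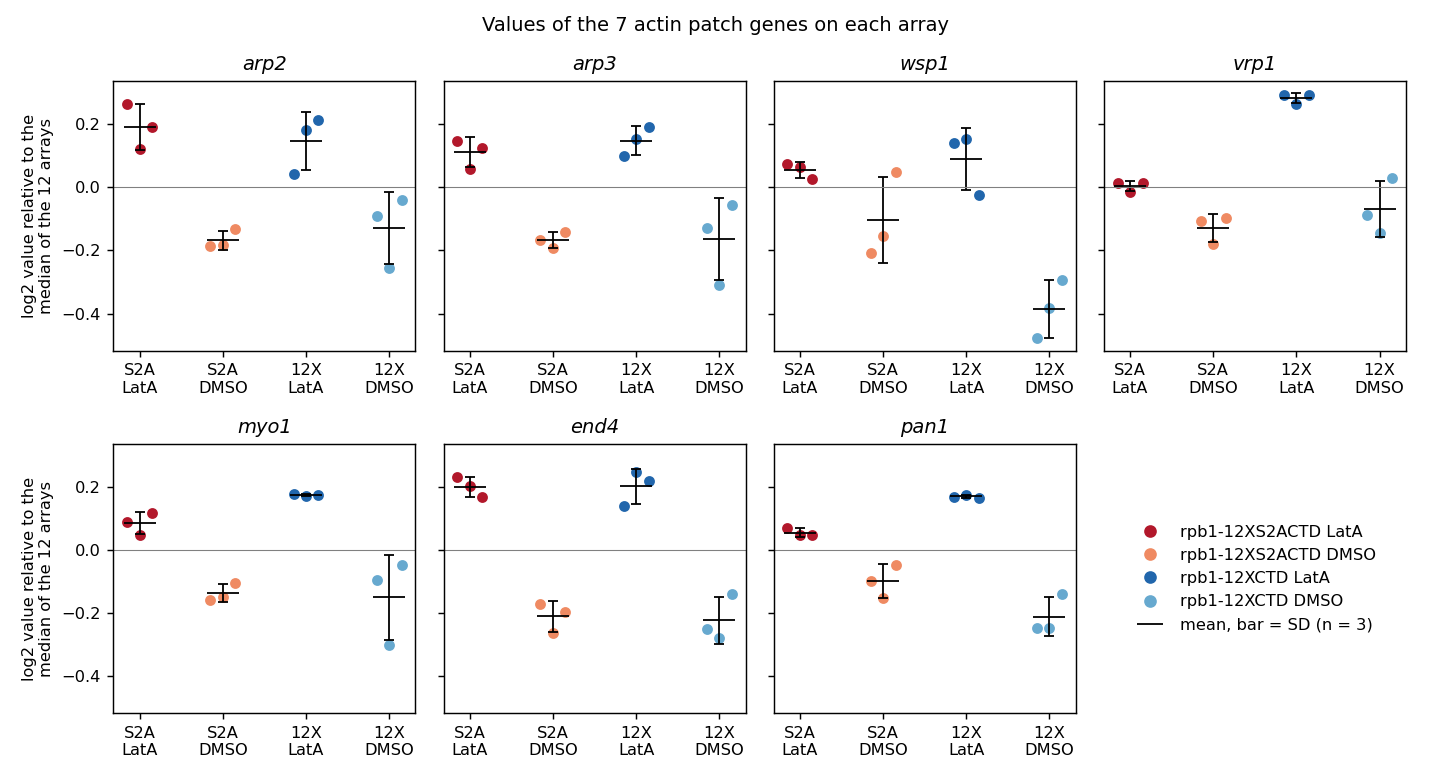
Log2 value of each of the 7 genes on each array (vertical axis, relative to the gene's median over the 12 arrays), for *rpb1-12XS2ACTD* cells (S2A) and *rpb1-12XCTD* cells (12X) with LatA or DMSO. Points are the 3 replicates, and lines are the mean with its SD. The LatA points sit above the DMSO points of the same strain in every panel but that of *wsp1*, where the highest DMSO point of *rpb1-12XS2ACTD* cells, 0.05, reaches into the LatA points.

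*arp2* and *arp3* (SPAC11H11.06 and SPAC630.03) code for the actin-related subunits that form the base of a new filament. In *rpb1-12XS2ACTD* cells *arp2* was at 0.26, 0.12 and 0.19 with LatA (log2 values of replicates 1, 2 and 3), against −0.19, −0.18 and −0.13 with DMSO. In *rpb1-12XCTD* cells it was at 0.04, 0.18 and 0.21 with LatA, against −0.09, −0.26 and −0.04 with DMSO. LatA and DMSO values did not overlap in either strain, while the strains overlapped under each treatment. The difference of LatA minus DMSO was 0.36 ± 0.08 (SE, adjusted p = 0.00580) in *rpb1-12XS2ACTD* cells and 0.27 ± 0.08 (adjusted p = 0.0188) in *rpb1-12XCTD* cells. The second of these did not pass without *rpb1-12XCTD* DMSO replicate 2 (0.21, adjusted p = 0.0570). Nor did it without LatA replicate 2 (0.26, adjusted p = 0.0766) or LatA replicate 3 (0.24, adjusted p = 0.0786) of that strain. It also did not pass with the 2 compared groups fitted alone (adjusted p = 0.105) or by the gene-specific t-test of the methods (adjusted p = 0.122). With each array's median set to 0 it was 0.18 and did not pass (adjusted p = 0.0612). With quantile normalization, which gives every array the same distribution of values, it was 0.17 and did not pass (adjusted p = 0.0550).

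*arp3* behaved much like its partner. With LatA it was at 0.15, 0.06 and 0.13 in *rpb1-12XS2ACTD* cells, where the DMSO values were −0.17, −0.19 and −0.14. With LatA it was at 0.10, 0.15 and 0.19 in *rpb1-12XCTD* cells, where the DMSO values were −0.13, −0.31 and −0.06. Again every LatA value stood above every DMSO value, and the strains overlapped. The difference was 0.28 ± 0.07 (adjusted p = 0.0155) in *rpb1-12XS2ACTD* cells and 0.31 ± 0.07 (adjusted p = 0.00766) in *rpb1-12XCTD* cells. The first did not pass without *rpb1-12XS2ACTD* LatA replicate 1 (0.26, adjusted p = 0.0577), LatA replicate 3 (0.27, adjusted p = 0.0564) or DMSO replicate 2 (0.26, adjusted p = 0.0527). The difference in *rpb1-12XCTD* cells did not pass with the 2 compared groups alone (adjusted p = 0.0709) or by the methods' t-test (adjusted p = 0.0930). In both genes the levels ran in the order of LatA groups above DMSO groups, and neighbours under 1 treatment did not differ by the test.

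*wsp1* (SPAC4F10.15c) codes for the fission yeast WASP, the chief activator of the Arp2/3 complex, and was the member with the widest spread. In *rpb1-12XS2ACTD* cells it was at 0.07, 0.07 and 0.03 with LatA, against −0.21, −0.15 and 0.05 with DMSO. In *rpb1-12XCTD* cells it was at 0.14, 0.15 and −0.03 with LatA, against −0.48, −0.38 and −0.29 with DMSO. The lowest 3 values of the gene were thus those of *rpb1-12XCTD* cells with DMSO, and the groups of *rpb1-12XS2ACTD* cells overlapped by 1 array. The difference of LatA minus DMSO was 0.47 ± 0.09 in *rpb1-12XCTD* cells (adjusted p = 0.00182), and its 95% interval, 0.28 to 0.66, took in 1.5 fold (0.58 in log2), as that of no other member did. It was the largest of the 7 there on the values as deposited, but not with array weights, which count scattered arrays for less (0.467, against 0.470 for *end4*) or with quantile normalization, which gives every array the same distribution of values (0.296, against 0.304 for *end4*). In *rpb1-12XS2ACTD* cells it was 0.16 ± 0.09 and did not pass (adjusted p = 0.182). The group means ran in the order of 0.09 in *rpb1-12XCTD* cells with LatA, 0.05 in *rpb1-12XS2ACTD* cells with LatA, −0.10 in *rpb1-12XS2ACTD* cells with DMSO and −0.39 in *rpb1-12XCTD* cells with DMSO, and no step between neighbours passed the test.

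*vrp1* (SPBC13E7.09) codes for verprolin, the partner that binds Wsp1. In *rpb1-12XS2ACTD* cells it was at 0.01, −0.01 and 0.01 with LatA, against −0.11, −0.18 and −0.10 with DMSO. In *rpb1-12XCTD* cells it was at 0.29, 0.26 and 0.29 with LatA, against −0.09, −0.15 and 0.03 with DMSO. The 3 highest values were those of *rpb1-12XCTD* cells with LatA, well clear of the 9 others. LatA minus DMSO was 0.13 ± 0.06 in *rpb1-12XS2ACTD* cells, which did not pass (adjusted p = 0.136) although the groups did not overlap, and 0.35 ± 0.06 in *rpb1-12XCTD* cells (adjusted p = 0.00190). The difference in *rpb1-12XS2ACTD* cells passed by the gene-specific t-test of the methods on the 6 arrays compared (adjusted p = 0.0310), with array weights (adjusted p = 0.00761), with quantile normalization (adjusted p = 0.0474) and without *rpb1-12XCTD* DMSO replicate 3 (adjusted p = 0.0425). By the same t-test the difference in *rpb1-12XCTD* cells did not pass (adjusted p = 0.0552). The group means were 0.28 in *rpb1-12XCTD* cells with LatA and 0.00 in *rpb1-12XS2ACTD* cells with LatA. They were −0.07 in *rpb1-12XCTD* cells with DMSO and −0.13 in *rpb1-12XS2ACTD* cells with DMSO. The first step in that order passed the test, the last did not, and the middle one, which crosses strain and drug, was not tested.

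*myo1* (SPBC146.13c) codes for the type I myosin of the patch, a motor that also activates the Arp2/3 complex. It was at 0.09, 0.05 and 0.12 with LatA in *rpb1-12XS2ACTD* cells, against −0.16, −0.15 and −0.10 with DMSO. It was at 0.18, 0.17 and 0.17 with LatA in *rpb1-12XCTD* cells, against −0.10, −0.30 and −0.05 with DMSO. LatA values exceeded DMSO values in both strains, and the *rpb1-12XCTD* DMSO arrays were the most scattered. The difference was 0.22 ± 0.07 in *rpb1-12XS2ACTD* cells (adjusted p = 0.0372) and 0.32 ± 0.07 in *rpb1-12XCTD* cells (adjusted p = 0.00573). The latter did not pass with the 2 compared groups alone (adjusted p = 0.0620) or by the methods' t-test (adjusted p = 0.0866). The call in *rpb1-12XS2ACTD* cells was the least secure of the 4 there: it was lost without any 1 of 9 arrays, the 6 of that strain and the 3 *rpb1-12XCTD* LatA arrays, at adjusted p of 0.0549 to 0.119.

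*end4* (SPAC688.11) codes for the counterpart of budding yeast Sla2 and mammalian HIP1R, which ties the coat to actin. With LatA it was at 0.23, 0.20 and 0.17 in *rpb1-12XS2ACTD* cells, against −0.17, −0.26 and −0.20 with DMSO. With LatA it was at 0.14, 0.25 and 0.22 in *rpb1-12XCTD* cells, against −0.25, −0.28 and −0.14 with DMSO. The LatA and DMSO values were farther apart than in any other member in *rpb1-12XS2ACTD* cells, and the strains lay over each other under both treatments. The difference was 0.41 ± 0.07 in *rpb1-12XS2ACTD* cells (adjusted p = 0.00122) and 0.42 ± 0.07 in *rpb1-12XCTD* cells (adjusted p = 0.000741). In both strains it passed without each array in turn. By the methods' t-test it did not pass in *rpb1-12XCTD* cells (adjusted p = 0.0539).

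*pan1* (SPAC25G10.09c) codes for the fission yeast counterpart of Pan1, in budding yeast a scaffold of the coat that also activates the Arp2/3 complex. It was at 0.07, 0.05 and 0.05 with LatA in *rpb1-12XS2ACTD* cells, against −0.10, −0.15 and −0.05 with DMSO. It was at 0.17, 0.17 and 0.17 with LatA in *rpb1-12XCTD* cells, against −0.25, −0.25 and −0.14 with DMSO. The groups stood apart in both strains, and the *rpb1-12XS2ACTD* values lay inside the range of the *rpb1-12XCTD* values. The difference was 0.15 ± 0.06 in *rpb1-12XS2ACTD* cells, which did not pass (adjusted p = 0.0750). In *rpb1-12XCTD* cells it was 0.38 ± 0.06 (adjusted p = 0.000863), and this second difference did not pass by the methods' t-test (adjusted p = 0.0539). The first passed by the methods' t-test (adjusted p = 0.0317), with array weights (adjusted p = 0.00423), with median centring, each array's median being set to 0 (adjusted p = 0.0287), with quantile normalization (adjusted p = 0.0265) and without *rpb1-12XCTD* DMSO replicate 3 (adjusted p = 0.0233).

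The question of the drug comparison was how LatA changed the messages of cells with and without Ser-2. In *rpb1-12XS2ACTD* cells 4 of the 7 genes rose by adjusted p alone, where 17.4% of all probe sets did, and 0 of 7 passed with 1.5 fold, where 6.13% of all did so upward. In 6 of 7 the LatA values lay wholly above the DMSO values, as they did in 27.7% of all probe sets, and the median difference was 0.22 against −0.01 over all. Without *rpb1-12XS2ACTD* DMSO replicate 2, LatA replicate 1 or LatA replicate 3 the count was 2 of 7, *arp2* and *end4* in each case. It was 6 of 7 by the methods' t-test, with array weights, with quantile normalization and without *rpb1-12XCTD* DMSO replicate 3, *vrp1* and *pan1* being added, and 5 of 7 with median centring. All 7 upper 95% bounds lay under 1.5 fold in this strain.

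In *rpb1-12XCTD* cells 7 of 7 rose by adjusted p alone, where 27.3% of all probe sets did, and 0 of 7 passed with 1.5 fold, where 10.6% of all did so upward. In all 7 the groups did not overlap, as in 32.3% of all probe sets, and the median difference was 0.35 against 0.10 over all. Part of this shift was thus common to the whole table in this strain. With each array's median set to 0, 23.8% of all probe sets rose, the median of the 7 genes was 0.26, and 6 of 7 passed, *arp2* being at 0.18 (adjusted p = 0.0612). The methods' t-test, which takes its spread from the 6 arrays alone, called 0 of 7 after adjustment in this strain (adjusted p from 0.0539 to 0.122) and 7 of 7 before it. It called 0.308% of all probe sets as higher. In *rpb1-12XS2ACTD* cells the same test called 6 of 7, all but *wsp1*, where it called 17.5% of all probe sets as higher. Which strain had more of the 7 genes called thus depends on the test, and so it does for all probe sets.

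**Figure D2:**
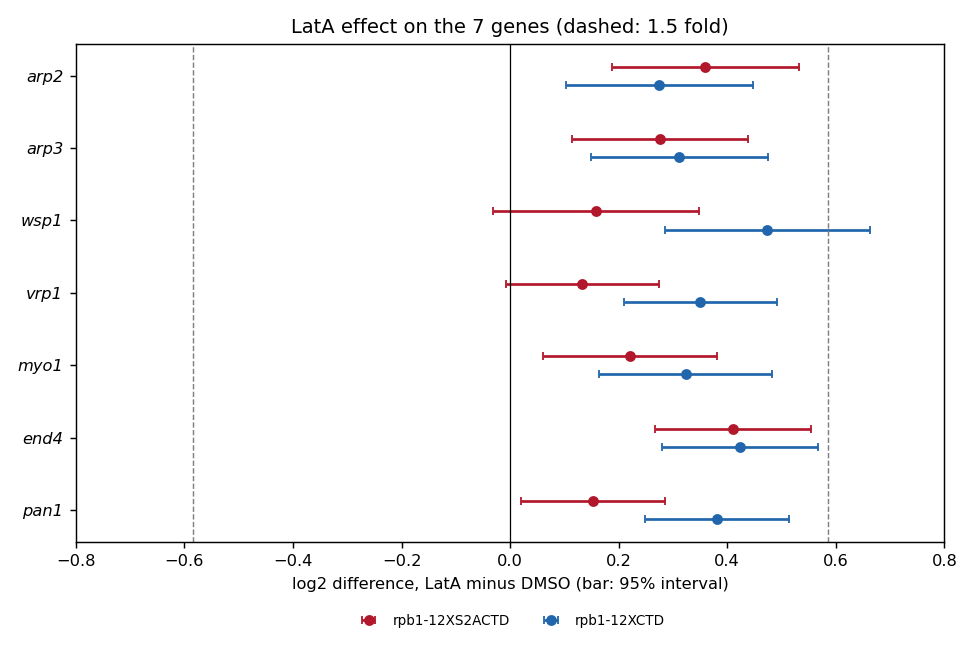
Difference of LatA minus DMSO in log2 (horizontal axis) for the 7 genes, in *rpb1-12XS2ACTD* cells and in *rpb1-12XCTD* cells, with the 95% interval as a bar. All 14 differences lie above 0 and below the dashed line of 1.5 fold, and the interval of *wsp1* in *rpb1-12XCTD* cells crosses that line.

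The average of both strains draws on all 12 arrays. By it 7 of 7 genes rose at adjusted p of 4.31e-05 (*end4*) to 0.00142 (*wsp1*), where 30.4% of all probe sets did, and the count was 7 under every alternative that gives this average. Among the differences of all probe sets in order, the 7 genes lay between the 72.8th percentile (*vrp1*) and the 85.6th (*end4*). They were therefore in the upper part of the table but far from its end, which held 375 probe sets, 7.69%, that rose by over 1.5 fold.

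The strain comparison asked what the loss of Ser-2 changed under each treatment. With LatA, 1 of 7 genes, *vrp1*, passed on adjusted p alone and was lower in *rpb1-12XS2ACTD* cells, as were 3.53% of all probe sets. Its difference of *rpb1-12XS2ACTD* minus *rpb1-12XCTD* was −0.28 ± 0.06 (adjusted p = 0.0338, 95% interval −0.42 to −0.14), which is 0.825 fold and did not reach the threshold of 1.5 fold, as 2.89% of all probe sets did in either direction. The 3 *rpb1-12XS2ACTD* values lay below the 3 *rpb1-12XCTD* values in *vrp1*, *myo1* and *pan1*, so in 3 of 7, where 32.1% of all probe sets did. *myo1* differed by −0.09 (adjusted p = 0.511) and *pan1* by −0.12 (adjusted p = 0.290), and neither passed. The call of *vrp1* rests on the full set of arrays. It was lost without any 1 of the 6 LatA arrays (adjusted p from 0.0900 to 0.126). It was also lost without *rpb1-12XS2ACTD* DMSO replicate 3 (adjusted p = 0.0502). In all of these the difference stayed between −0.29 and −0.27. Without any 1 of the 6 LatA arrays the calls over all probe sets fell too, from 273 to between 40 and 82. Under the alternatives that keep all arrays *vrp1* passed (adjusted p from 0.000423 to 0.0484).

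With DMSO 0 of 7 genes differed between the strains, where 0.964% of all probe sets were called on adjusted p alone and 0.862% with 1.5 fold. An unadjusted p under 0.05 was seen in 1 of 7, *wsp1*. Of all 4875 probe sets 699 had one as higher and 128 as lower. *wsp1* was higher in *rpb1-12XS2ACTD* cells by 0.28 ± 0.09 with groups that did not overlap, as in 8.35% of all probe sets, and did not pass (adjusted p = 0.160, 95% interval 0.09 to 0.47). It passed without *rpb1-12XCTD* DMSO replicate 3, at 0.33 (adjusted p = 0.0407), where 13.1% of all probe sets passed as higher. With quantile normalization the difference of *wsp1* was 0.14, and over the alternatives that keep all arrays the adjusted p ran from 0.161 to 0.859. The 6 other genes differed by −0.06 to 0.11, and their 95% intervals reached from −0.21 to 0.25, which leaves room for differences of up to 1.19 fold in favour of *rpb1-12XS2ACTD* cells. The methods' t-test called 0 of 7 in this comparison as well.

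Whether the LatA effect differed between the strains was tested as its own term, the effect in *rpb1-12XS2ACTD* cells minus that in *rpb1-12XCTD* cells. It passed in 0 of 7 genes, where 0.0205% of all probe sets passed. Of all 4875 probe sets, 480 had an unadjusted p under 0.05 with a negative term and 56 with a positive one. Of the 7 genes 3 had one, each with a negative term. These were *wsp1* (−0.32 ± 0.12), *vrp1* (−0.22 ± 0.09) and *pan1* (−0.23 ± 0.09), each at adjusted p = 0.426. The whole table was shifted the same way in this term, with a median of −0.12, and with each array's median set to 0 the same 3 differences were −0.22, −0.12 and −0.13. That 4 genes passed with LatA in *rpb1-12XS2ACTD* cells and 7 in *rpb1-12XCTD* cells is thus not shown to be a difference between the strains. The LatA and strain comparisons are drawn from the same arrays, so they do not bear on each other as separate evidence.

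**Figure D3:**
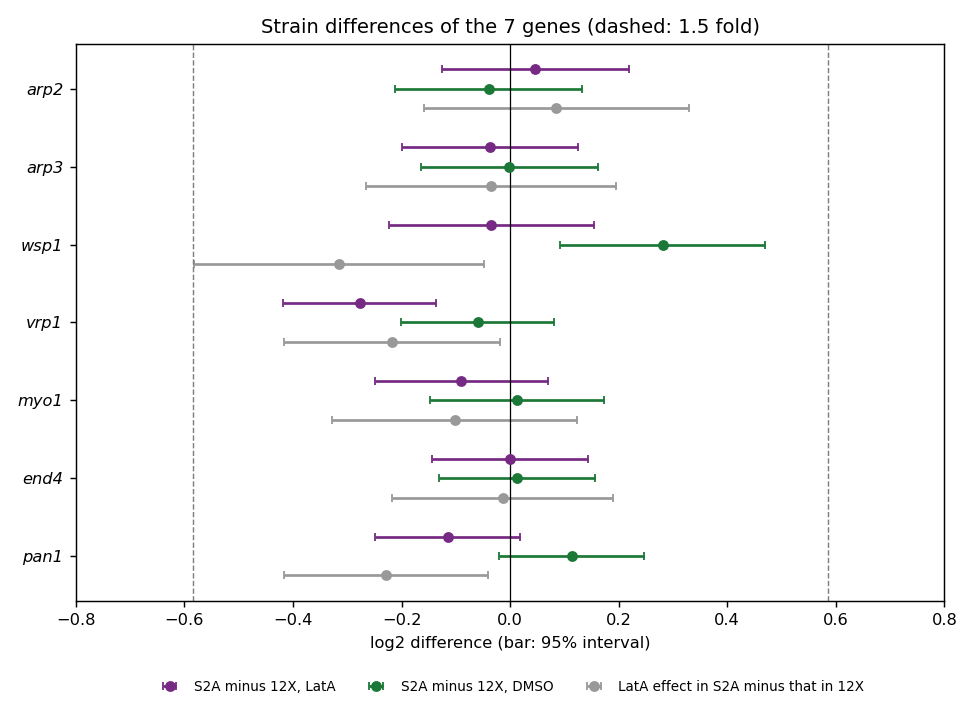
Difference of *rpb1-12XS2ACTD* (S2A) minus *rpb1-12XCTD* (12X) in log2 with LatA and with DMSO, and the difference of the LatA effects, for the 7 genes, with 95% intervals as bars (horizontal axis in log2; dashed lines at 1.5 fold). The *vrp1* interval with LatA, −0.42 to −0.14, lies below 0, and that of *wsp1* with DMSO, 0.09 to 0.47, lies above it.

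The 7 genes followed each other across the arrays. Pearson's r of their 12 values was 0.59 to 0.98 over the 21 pairs, with a median of 0.87, and that of each gene with the mean profile of the 7 was 0.84 (*wsp1*) to 0.97 (*arp3*). Each of the 7 is itself part of that mean, which raises its r with it. Such values were not rare, since 21.2% of all probe sets had r above 0.8 with that mean profile. The points share the arrays, their normalization and the drug. With the group means taken out, r over the pairs was 0.03 to 0.93 with a median of 0.67, and it was highest between *arp2* and *arp3*. Outside the 7, the genes most like the mean profile over the 12 arrays were *yap18* (r = 0.991), *hrk1* (r = 0.989), *pgr1* and *pof2* (r = 0.987 each) and *cfh2* (r = 0.983). *yap18* codes for an AP180-like clathrin adaptor and belongs to the list of coat genes below, *hrk1* codes for haspin kinase, *pgr1* for glutathione reductase and *pof2* for an F-box protein.

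Other genes of the same pathway were taken from fixed lists. The 5 other subunits of the Arp2/3 complex, *arc1* to *arc5*, rose by adjusted p alone in both strains, 5 of 5 in each, where 17.4% of all probe sets did in *rpb1-12XS2ACTD* cells and 27.3% in *rpb1-12XCTD* cells. With 1.5 fold 0 of 5 passed, where 6.13% of all did so upward in *rpb1-12XS2ACTD* cells and 10.6% in *rpb1-12XCTD* cells. Over both strains their differences ran from 0.26 in *arc3* (SE 0.05, adjusted p = 0.00260) to 0.41 in *arc2* (SE 0.05, adjusted p = 0.000125), a range that lies within that of the 7 genes. With *arp2* and *arp3*, all 7 subunits of the complex thus had higher messages with LatA, by 0.26 to 0.41. Between the strains 0 of 5 passed on adjusted p alone with LatA, where 5.6% of all probe sets did, and 0 of 5 with DMSO, where 0.964% did. With LatA the *rpb1-12XS2ACTD* values nonetheless lay wholly above the *rpb1-12XCTD* values in 4 of 5, *arc2* to *arc5*, where 15.6% of all probe sets did.

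Of 21 other coat, adaptor and regulator genes of endocytosis 20 were measured, and 14 of these rose, where 30.4% of all probe sets did, and 2 fell over both strains by adjusted p alone, with a median of 0.21 against 0.04 over all probe sets. With 1.5 fold 2 of 20 passed over both strains, where 7.69% of all probe sets did so upward. These were *ppk30*, a kinase of the family that in budding yeast takes the coat apart (0.70 ± 0.12, adjusted p = 0.000556), and *yap18* (0.63 ± 0.07, adjusted p = 4.57e-05). In *rpb1-12XCTD* cells *shd1*, the counterpart of budding yeast Sla1, passed too (0.66 ± 0.08, adjusted p = 0.000270), which made 3 of 20, where 10.6% of all did so upward. In *rpb1-12XS2ACTD* cells *shd1* rose by 0.43, under that fold. There 1 of 20, *ppk30*, passed with 1.5 fold, where 6.13% of all did so upward. The lowest was *end3*, an EH-domain protein of the coat, which fell by 0.33 (SE 0.07, adjusted p = 0.00313). The other that fell was *ppk29*, a kinase of the same family as *ppk30*, at −0.16 (adjusted p = 0.0357), which is named here after its value was seen. In *rpb1-12XS2ACTD* cells 9 of 20 rose, where 17.4% of all probe sets did, and 2 fell. In *rpb1-12XCTD* cells 13 of 20 rose, where 27.3% of all probe sets did, and 1 fell. Of all probe sets 18.5% fell over both strains, 16% in *rpb1-12XS2ACTD* cells and 8.33% in *rpb1-12XCTD* cells.

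Among 11 genes of actin itself and of actin-binding proteins of patches, 10 rose over both strains on adjusted p alone, where 30.4% of all probe sets did, and 3 of them by over 1.5 fold, where 7.69% did. *abp1* (SPAPJ760.02c), an actin-binding protein that marks patches, rose by 0.81 ± 0.08 (adjusted p = 2.38e-05). *cap1*, which binds actin monomers, rose by 0.74 ± 0.07 (adjusted p = 1.39e-05), and *aip1*, which helps cofilin to take filaments apart, rose by 0.61 ± 0.12 (adjusted p = 0.00153). *abp1* and *cap1* passed with 1.5 fold in each strain, while *aip1* did so in *rpb1-12XCTD* cells (0.76) and did not pass in *rpb1-12XS2ACTD* cells (0.47, adjusted p = 0.0544). *aip1* was also the single gene of the 4 lists past 1.5 fold between the strains. It was lower in *rpb1-12XS2ACTD* cells with LatA (difference −0.97 ± 0.17, adjusted p = 0.0118), as were 1.5% of all probe sets with that fold. With DMSO its difference was −0.67 ± 0.17 and did not pass (adjusted p = 0.102). The groups did not overlap there either, as in 1.19% of all probe sets in that direction. The lowest of the list was *adf1*, the cofilin gene, at 0.09 ± 0.05 (adjusted p = 0.144).

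For comparison, of 12 genes of the contractile ring 8 rose over both strains on adjusted p alone, where 30.4% of all probe sets did, and 2 of them by over 1.5 fold, where 7.69% did. These were the type II myosin genes *myp2* (0.97 ± 0.16, adjusted p = 0.000596) and *myo2* (0.73 ± 0.07, adjusted p = 1.99e-05), while *mid1*, which places the ring, was the lowest at −0.01 ± 0.06 (adjusted p = 0.847). The median of the 7 patch genes was 0.29, against 0.22 for the ring genes, and no test of the lists against each other was made. The 7 patch genes kept between 0.24 and 0.42, where the ring genes spread from −0.01 to 0.97. A wide spread was not particular to the ring, since the other coat genes ran from −0.33 to 0.70 and the actin-binding genes of patches from 0.09 to 0.81. These lists also hold more genes than 7, and a range can widen with the number of genes.

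**Figure D4:**
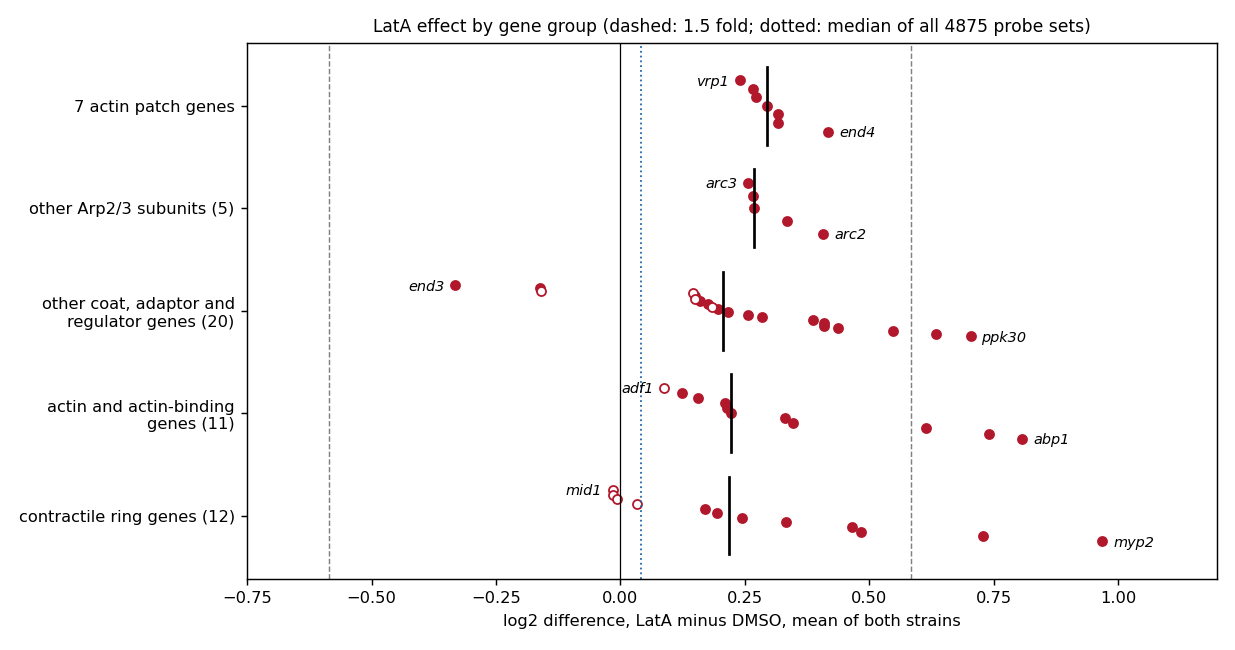
Difference of LatA minus DMSO in log2, as the mean of both strains (horizontal axis), for the genes of each list, with filled points for genes past adjusted p alone and open points for the others. Black lines are the medians of the lists, and the dotted line is the median of all 4875 probe sets (0.04). The 7 patch genes and the 5 other Arp2/3 subunits form the narrowest groups and are also the smallest lists.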

How the data were processed

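Total RNA of 12 samples was hybridized to Affymetrix Yeast Genome arrays. The authors normalized the arrays by RMA (version not given in the submitters' processing notes), and the deposited log2 values were used as given. Each probe set has a median of 0 over the 12 arrays, and how it was centred is not given in the sources used here. The 7 genes were named through the array annotation or the study's gene list, with RefSeq symbols, and 3921 of 4875 probe sets had 1 name.

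The means of the 4 groups were fitted over all 12 arrays in limma 3.58.1 in R 4.3.3, after a run on simulated data. Both LatA effects, both strain differences, the interaction and the mean LatA effect were drawn from it. The p-values were adjusted by Benjamini-Hochberg over 4875 probe sets. A gene passed at adjusted p under 0.05, alone or with a difference over 1.5 fold. All tests are two-sided, and the spread between biological replicates sets their precision, with 3 arrays a group, since arrays have no depth. The methods' t-test is a gene-specific test of equal variances on the 6 arrays compared.

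The genes, lists, tests and alternatives were chosen with earlier results of these data known. Named genes are the 7, list genes past 1.5 fold in any comparison, the highest and lowest of each list, and the 5 most alike profiles. Alternatives were the methods' t-test, the 2 groups alone, quantile normalization, array medians set to 0, array weights, limma with trend and robust estimates, the replicate number as a block, probe sets of several genes left out, and each array left out.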

Additional observations from a re-analysis of the deposited data

How the results depend on the processing

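The count of the 7 genes past 1.5 fold was 0 in all 6 comparisons under all alternatives, and that of the mean LatA effect on adjusted p alone was 7. With LatA in *rpb1-12XCTD* cells the count on adjusted p alone was 4 with the 2 groups alone and 0 by the methods' t-test. It was 6 with median centring and with quantile normalization, *arp2* being lost, and 6 to 7 without single arrays. In *rpb1-12XS2ACTD* cells it was 4, and 6 by the methods' t-test, with array weights and with quantile normalization, 5 with median centring, and 2 to 6 without single arrays. Between the strains with LatA it was 2 by the methods' t-test and 2 with array weights, *pan1* being the addition, and 0 to 1 without single arrays. With DMSO it was 0 to 1 without single arrays. The replicate numbers pair no samples by any source. In 7 of 18 same-numbered pairs the deviations correlated above 0.1 (r from −0.40 to 0.34), and in 8 of 36 other pairs they did. With the number as a block, 7 genes rose in *rpb1-12XCTD* cells and 4 in *rpb1-12XS2ACTD* cells, and the block changed no call of the 7 genes.

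Directions that turned belong to strain differences and interactions near 0 that did not pass. Between the strains with DMSO, *arp2* was at 0.012 and *arp3* at 0.049 with array weights, *myo1* at −0.053 and −0.068 and *end4* at −0.053 and −0.090 with median centring and quantile normalization. With LatA, *end4* was at 0.027 and 0.031 under these and *wsp1* at 0.0088 with quantile normalization. The interaction of *arp3* was 0.058 and 0.086 and that of *end4* 0.080 and 0.12 under both, and that of *myo1* 0.010 with quantile normalization. Without single arrays the ranges with DMSO were −0.10 to 0.0047 for *arp2*, −0.073 to 0.052 for *arp3*, −0.064 to 0.063 for *myo1* and −0.015 to 0.054 for *end4*, those with LatA −0.0058 to 0.082 for *arp2* and −0.032 to 0.021 for *end4*, and those of the interaction −0.089 to 0.036 for *arp3* and −0.055 to 0.014 for *end4*.

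Over all probe sets the counts of calls varied more. On adjusted p alone, those with LatA in *rpb1-12XCTD* cells were 1738, of which 76.6% were higher, against 29 by the methods' t-test, 1060 with the 2 groups alone, 2044 with median centring, of which 56.7% were higher, and 2079 with quantile normalization, of which 52% were. For the mean of both strains 62.1% of calls were higher, against 51.3% with median centring. Between the strains with LatA 273 were called, against 40 without *rpb1-12XS2ACTD* LatA replicate 2 and 1751 with array weights. With DMSO 47 were called, against 646 without *rpb1-12XCTD* DMSO replicate 3 and 0 by the methods' t-test. The interaction had 1 call, and 0 to 90 under the alternatives. With 1.5 fold added, the 642 calls with LatA in *rpb1-12XCTD* cells were 15 by the methods' t-test.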
